A study of Mus musculus and Acomys cahirinus with 84 samples.

Results

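The genes of MHC class I antigen presentation were followed across all doses, times, populations and the passage group of a study of irradiated skin fibroblasts. The set held 10 genes, chosen by symbol: B2m, H2-K1, H2-D1, Tap1, Tap2, Tapbp, Psmb8, Psmb9, Psmb10 and Nlrc5. All 10 were found among the 56980 gene identifiers of the mouse count table. The table of *Acomys cahirinus*, the spiny mouse, lists 19818 gene names and holds 8 of the 10, without H2-K1 and H2-D1, whose values in that species were not analysed here.

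RNA-seq counts came from 84 libraries of primary skin fibroblasts in 21 groups of 4. The cells came from C56BL6 mice (spelled as in the labels), from wild mice and from *A. cahirinus*. In each population there were untreated cells and cells given 10 Gy or 20 Gy of gamma radiation, collected after 24 h or after 12 d, plus a group labelled as untreated and passaged, collected at 12 d. The 12 d untreated cells without that label are called kept cultures here, and neither untreated group received radiation. Ages and sexes of the animals are not given in the sources used here. Replicates 1 to 4 carry one animal code each in the library names, so that libraries of one population with the same replicate number share an animal, and the p-values measure the spread between these cultures. Primary fibroblasts in culture are a model without the immune cells that read class I molecules.

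Class I molecules show peptides from inside a cell to CD8+ T cells. Cytosolic proteins are cut by the proteasome, in which the inducible subunits encoded by Psmb8, Psmb9 and Psmb10 can replace constitutive ones. The Tap1 and Tap2 transporter carries peptides into the endoplasmic reticulum, and tapasin, encoded by Tapbp, holds empty class I molecules beside it. There they are loaded onto a heavy chain, H2-K1 or H2-D1, paired with beta-2-microglobulin from B2m. Interferons raise most of these genes, and NLRC5 is a transactivator of class I genes.

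On GRCm39, 7 of the 10 genes lie in the MHC region of chromosome 17. Their positions are Tapbp chr17:34134873-34148266 (plus strand), H2-K1 chr17:34214991-34219321 (minus), Psmb9 chr17:34400961-34406738 (minus), Tap1 chr17:34406527-34416199 (plus), Psmb8 chr17:34416695-34420428 (plus), Tap2 chr17:34422501-34435295 (plus) and H2-D1 chr17:35481706-35486475 (plus). B2m lies at chr2:121978167-121983564 (plus). Nlrc5 lies at chr8:95160984-95253900 (plus) and Psmb10 at chr8:106662367-106665076 (minus). All are annotated as protein coding. Values below are in CPM, the counts over all exons of a gene scaled to a common library total.

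Short stretches upstream of RefSeq starts of the heavy chain genes and B2m are shown. They were chosen because they hold textbook elements of class I promoters, a kappaB element and an interferon response element. They come from RefSeq promoter windows (table build GRCm38.p6) that were placed on GRCm39 by exact match. Capitals mark the matches. The kappaB element is the first run of capitals in the H2-K1 and H2-D1 lines. An IRF element is GAANNGAAA, seen in these lines on the other strand, and an ISRE is GAAA, any 2 bases and GAAA, so that both can overlap. All were searched on both strands. The H2-K1 stretch is chr17:34219393-34219492 on the minus strand, 100 bases outside annotated exons. The H2-D1 stretch is chr17:35481899-35481928 and the B2m stretch chr2:121978029-121978058, both on the plus strand and within annotated exons of some transcript. The H2-D1 stretch lies inside the gene span given above and is upstream of the RefSeq start only.
H2-K1: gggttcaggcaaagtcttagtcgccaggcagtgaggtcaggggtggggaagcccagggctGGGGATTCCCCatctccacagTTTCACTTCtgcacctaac
H2-D1: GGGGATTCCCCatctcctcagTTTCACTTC
B2m: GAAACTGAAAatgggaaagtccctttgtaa

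The marked H2-K1 and H2-D1 stretches had 29 of 30 bases alike. Among 32851 RefSeq windows of the 250 bases before a gene start, the kappaB letters occurred on either strand in 10 windows (0.0304%), among them those of H2-K1 and H2-D1. The IRF letters occurred in 6.31% of windows, among the members in H2-K1 and H2-D1, and the ISRE letters in 2.98%, among the members in B2m. A GAS element, TTCNNNGAA, occurred in 7.02% of windows and in that of Psmb8. Windows were found for 8 members, not for Tap2 and Nlrc5. These matches describe letters, not measured binding.

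Library totals before scaling were 26.65 M to 39.82 M counts in C56BL6 and 17.42 M to 35.98 M in wild mice. In *A. cahirinus* they were 25.55 M to 52.86 M. Of these totals, 3 counts correspond to at most 0.172 CPM in any library, a limit that covers counting error only. The CPM printed here use TMM-scaled totals, which can put 3 counts higher. In wild replicate 1 after 10 Gy at 24 h, 10 counts of Psmb9 gave 0.675 CPM. All 10 fibroblast markers averaged at least 1 CPM in each population. Of the leukocyte and macrophage markers, 3 of 10 in C56BL6, 3 of 10 in wild mice and 2 of 9 in *A. cahirinus* reached that level. Among the fibroblast markers, Lum was at 0 counts in 8 wild and 2 C56BL6 libraries. Dcn went down to 0.225 CPM in wild mice and 0.749 CPM in C56BL6. Summed keratinocyte markers stood at 193 to 837 CPM in C56BL6 replicate 1 at 12 d and at no more than 3.26 CPM in the other C56BL6 replicates. In wild mice, a comparison of genes that are on in all libraries of one animal and at 0 in those of another found 0 such genes between replicates 1 and 4 at 12 d, and 17 between replicate 1 at 12 d and replicate 1 at 24 h. A 0 alone does not mark a shared animal, since C56BL6 replicates 3 and 4 and all pairs of *A. cahirinus* animals gave 0 too. Summed muscle markers stood at 1872 to 2456 CPM in wild replicate 1 at 24 h and at 45.3 to 125 CPM at 12 d. The labels of wild replicate 1 at 12 d are therefore in doubt, the wild libraries at 12 d may stand for 3 animals, and results on wild mice at 12 d that passed a test are also given without it. Muscle markers summed to 531 to 2669 CPM in *A. cahirinus*, with the muscle regulator Myog at 170 to 1017 CPM there and at most 0.225 CPM in mouse, and their part in differences between populations was not tested. The labels give the 24 h and the 12 d libraries different batches, so that time coincides with batch, their effects cannot be told apart, and values at 24 h and 12 d were not tested against each other.

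Counts were tested with edgeR's quasi-likelihood test on all genes of the groups compared, with Benjamini-Hochberg adjustment and a threshold of 0.05. A fit with the replicate number as a block is given wherever it changed the call of a member, and for the gene lists as counts beside those without it. Changes are log2 fold changes ± SE, with 4 libraries a group. In bulk samples, fewer cells of a type and less RNA per cell cannot be told apart.

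At 12 d in C56BL6 fibroblasts, irradiation went with more Nlrc5, H2-D1 and B2m and with less Tapbp, at both doses. The other 6 members did not pass the test at either dose. Thus 4 of 10 members passed after 20 Gy, 3 of them higher, where 26.5% of the 15119 genes tested passed. After 10 Gy the count was also 3 higher and 1 lower, where 20.9% of 14894 genes passed. The median change of the 10 members was 0.06 after 20 Gy, beside -0.01 for all genes tested.

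**Figure D1:**
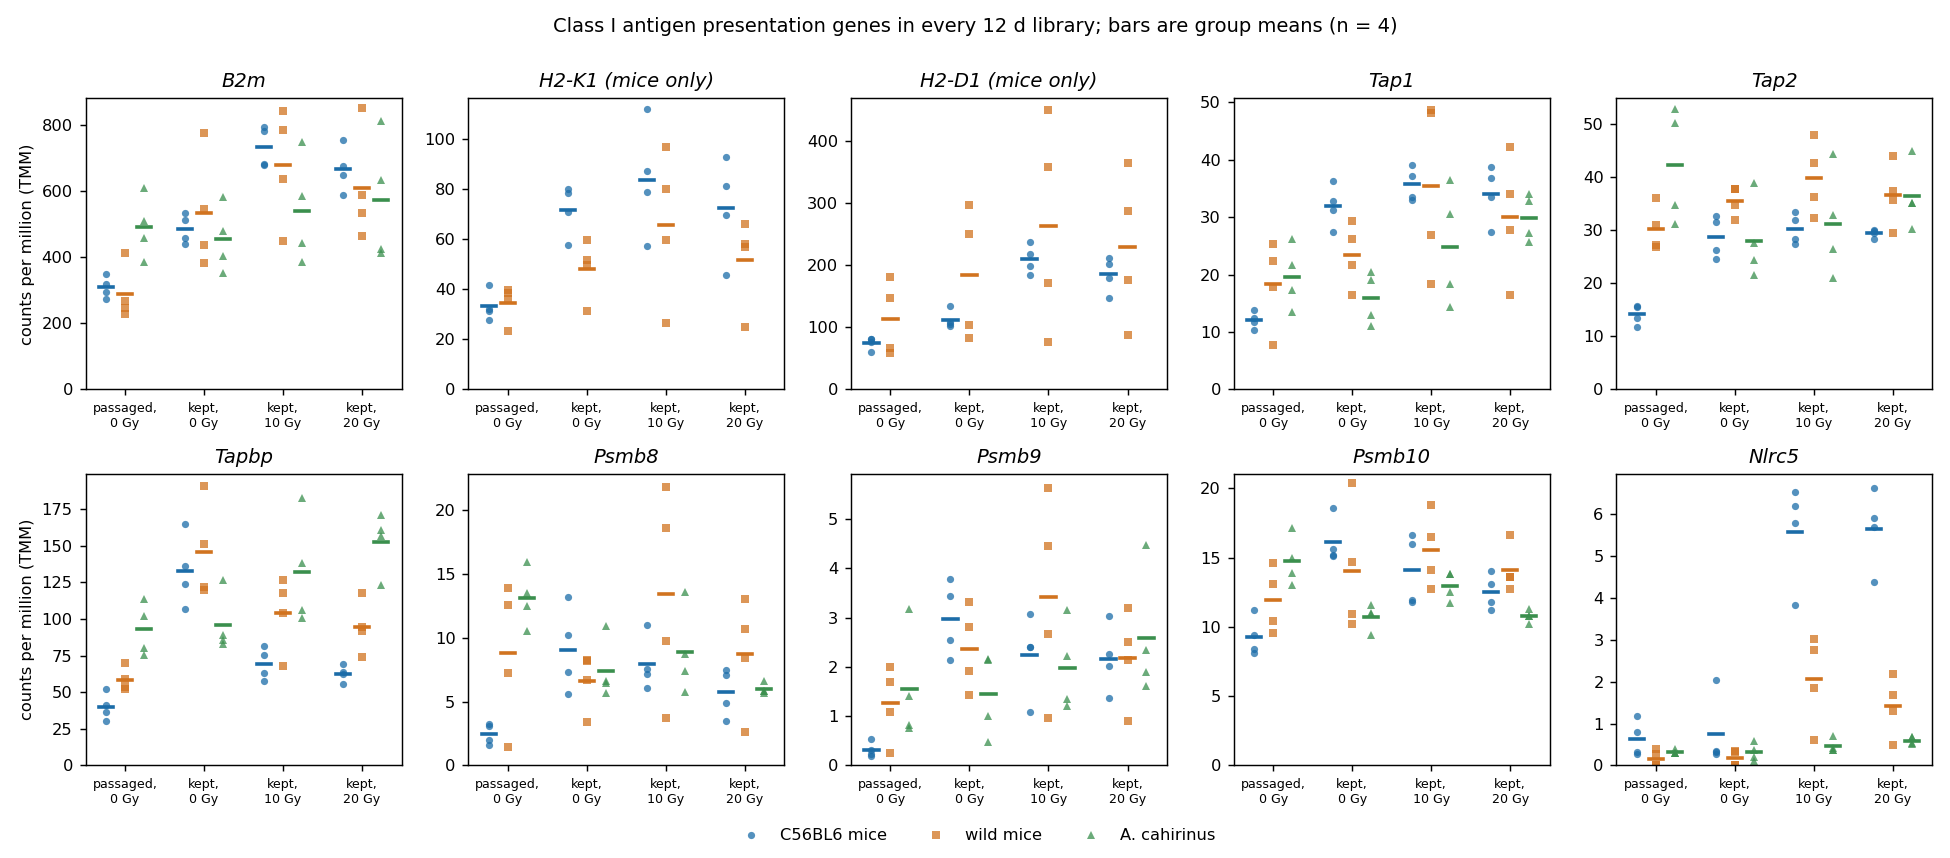
Expression of the 10 genes at 12 d, in CPM on the vertical axes, in each library (points, with bars for group means) of passaged, kept, 10 Gy and 20 Gy cultures of C56BL6, wild mice and *A. cahirinus*. Tapbp in C56BL6 lies between 107 and 165 CPM in kept cultures and between 55.5 and 69.4 CPM after 20 Gy, while Nlrc5 lies between 4.39 and 6.63 CPM after 20 Gy.

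Nlrc5 stood at 2.04, 0.316, 0.284 and 0.344 CPM in C56BL6 kept cultures of replicates 1 to 4. It stood at 6.19, 6.53, 5.8 and 3.84 CPM after 10 Gy and at 6.63, 5.92, 4.39 and 5.7 CPM after 20 Gy. All 8 irradiated libraries were above all kept libraries, and replicate 1 was the high one among the kept libraries. The change was 2.95 ± 0.67 after 10 Gy (adjusted p = 0.0188) and 2.96 ± 0.66 after 20 Gy (adjusted p = 0.0140), with each animal higher. Replicate 1 is also the animal with keratinocyte markers, at 837 CPM in its kept culture. Without it the Nlrc5 change was 4.12 after 10 Gy and 4.10 after 20 Gy. The call was lost when replicate 2, 3 or 4 was left out, with adjusted p = 0.104, 0.121 and 0.0858 after 10 Gy and 0.0850, 0.0758 and 0.0821 after 20 Gy, while the change stayed at 2.61 or more.

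H2-D1, a class I heavy chain, stood at 134, 109, 105 and 103 CPM in kept C56BL6 cultures. After 10 Gy it stood at 184, 219, 199 and 237 CPM, and after 20 Gy at 148, 212, 179 and 203 CPM. The irradiated libraries did not overlap with the kept ones, and replicate 1 showed the smallest gap after 20 Gy. The change was 0.94 ± 0.12 after 10 Gy (adjusted p = 0.00282), a call kept with each replicate left out. After 20 Gy it was 0.76 ± 0.13 (adjusted p = 0.00586), with adjusted p = 0.0523, 0.0578 and 0.0533 without replicates 2, 3 and 4. H2-D1 shares 14.2% of its 50-base words with other genes, most with H2-Q1, so reads could be split between copies. H2-K1, the other heavy chain, stood at 70.9, 57.9, 78.7 and 80.2 CPM in kept cultures and at 45.9, 69.8, 81.3 and 93 CPM after 20 Gy. These groups overlapped, and the change of 0.05 ± 0.21 did not pass (adjusted p = 0.882). H2-K1 shares 8.79% of its words with other genes, most with H2-D1.

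B2m, the light chain shared by all class I molecules, stood at 512, 533, 458 and 439 CPM in kept C56BL6 cultures. It stood at 683, 794, 680 and 782 CPM after 10 Gy and at 589, 755, 650 and 676 CPM after 20 Gy. Both irradiated groups lay wholly above the kept one. The change was 0.64 ± 0.10 after 10 Gy (adjusted p = 0.00598), lost without replicate 3 or 4 (adjusted p = 0.0689 and 0.0542). After 20 Gy it was 0.50 ± 0.11 (adjusted p = 0.0127), lost without replicate 2, 3 or 4 (adjusted p = 0.0524, 0.0961 and 0.0835).

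Tapbp moved the other way. It stood at 165, 107, 124 and 136 CPM in kept C56BL6 cultures, at 81.9, 57.9, 63.1 and 75.6 CPM after 10 Gy and at 63.5, 55.5, 62.2 and 69.4 CPM after 20 Gy. Every irradiated library was below every kept one. Tapbp fell by 0.89 ± 0.16 after 10 Gy (adjusted p = 0.00798) and by 1.05 ± 0.14 after 20 Gy (adjusted p = 0.00214). The 20 Gy call held with each replicate left out, and the 10 Gy call was lost without replicate 3 or 4 (adjusted p = 0.0784 and 0.0550). Of the exonic bases of Tapbp, 33.1% overlap Zbtb22 on the same strand or Gm19412 on the other. Zbtb22 itself changed by -0.16 ± 0.08 after 20 Gy, which did not pass (adjusted p = 0.160), with 27.6 ± 2.26 CPM (SD, n = 4) after 20 Gy.

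Neither transporter subunit passed the test after irradiation in C56BL6 at 12 d. Tap1 stood at 31.2, 36.4, 27.5 and 32.9 CPM in kept cultures and at 27.4, 38.7, 33.5 and 36.9 CPM after 20 Gy, and the groups overlapped (0.13 ± 0.13, adjusted p = 0.479). Tap2 stood at 24.5 to 32.7 CPM in kept cultures and at 28.3 to 30.1 CPM after 20 Gy, with a change of 0.07 ± 0.11 (adjusted p = 0.653).

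The inducible proteasome subunits had changes below 0 after 20 Gy that did not pass. Psmb8 stood at 13.2, 5.58, 7.34 and 10.2 CPM in kept cultures and at 3.46, 4.89, 7.09 and 7.45 CPM after 20 Gy, lower in each of the 4 animals (-0.63 ± 0.33, adjusted p = 0.189). Psmb9 stood at 2.14 to 3.78 CPM in kept cultures and at 1.36 to 3.04 CPM after 20 Gy (-0.42 ± 0.29, adjusted p = 0.321). Psmb10 stood at 15.2, 15.6, 15.1 and 18.6 CPM in kept cultures and at 11.2, 11.8, 14 and 13.1 CPM after 20 Gy, with no overlap. Its change of -0.32 ± 0.11 had an adjusted p of 0.0664 without the block and 0.0256 with it, where 47.5% of genes passed.

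**Figure D2:**
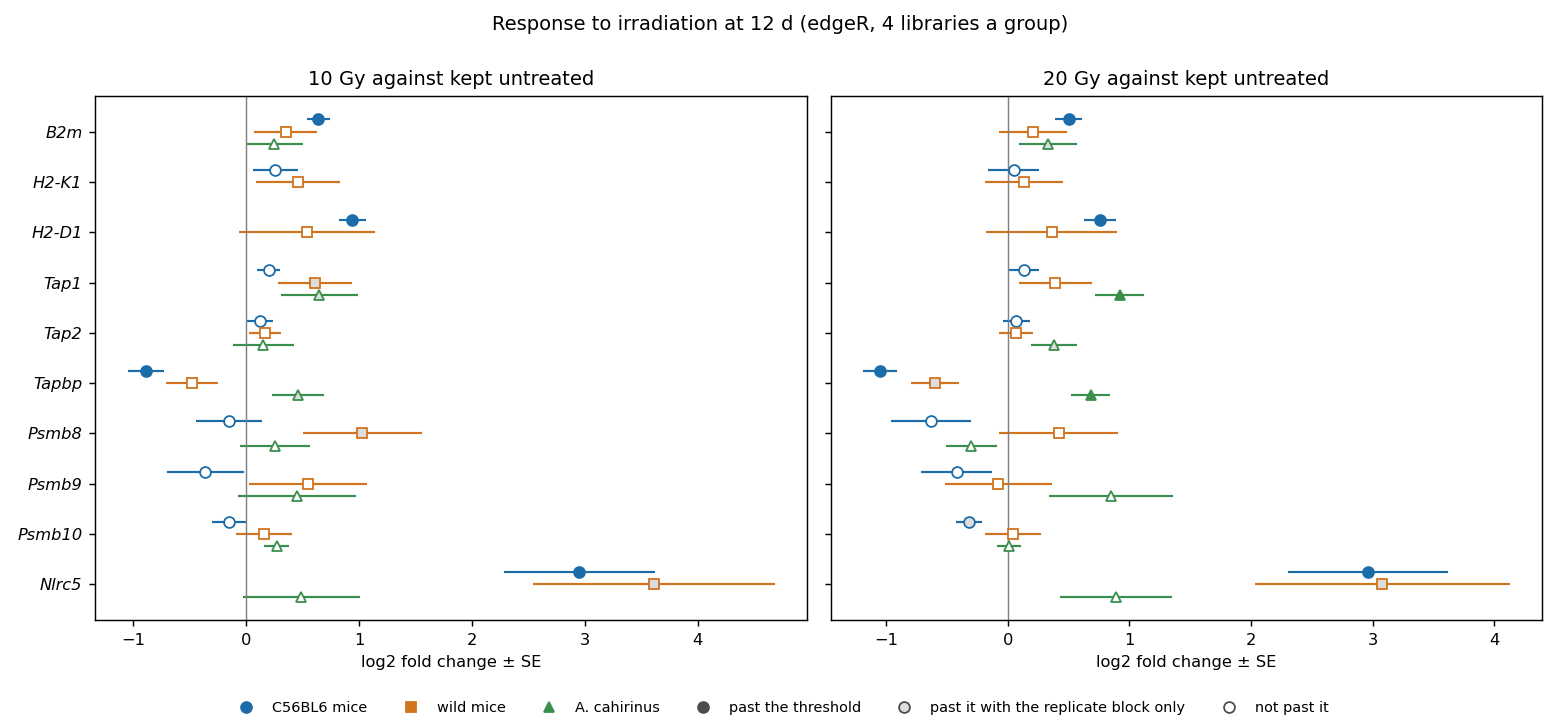
Log2 fold changes at 12 d after 10 Gy and 20 Gy against kept cultures, with SE bars, for each of the 10 genes and each population. Filled points passed the test, grey points passed only with the replicate block, and open points did not pass. Tapbp lies at -1.05 in C56BL6 and at 0.68 in *A. cahirinus* after 20 Gy.

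No member differed between 20 Gy and 10 Gy in C56BL6 at 12 d, where 0% of 15463 genes passed without the block and 0.297% with it. The changes of the 10 members lay between -0.47 (Psmb8) and 0.02 (Nlrc5).

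Around the members, 3 of 22 regulators tested were higher and 4 lower in C56BL6 after 20 Gy, where 26.5% of all genes passed. Usp18, a brake on type I interferon signalling that interferon itself induces, rose by 2.05 ± 0.54 (adjusted p = 0.0268). Irf7, an interferon-induced transcription factor, rose by 1.32 ± 0.30 (adjusted p = 0.0141). Socs1, an inhibitor of JAK signalling, fell by 1.49 ± 0.31 (adjusted p = 0.0115). The median of the list was -0.17. None of 9 listed interferon genes was tested, since no library held more than 2 counts of any of them in C56BL6, 3 in wild mice or, for the 6 in its table, 3 in *A. cahirinus*.

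Where 26.5% of all genes passed, the list of peptide supply and loading had 1 of 14 genes higher and 1 lower in C56BL6 after 20 Gy. These were the proteasome activator subunits Psme3 (0.34 ± 0.10, adjusted p = 0.0398) and Psme1 (-0.44 ± 0.11, adjusted p = 0.0208). Of 14 constitutive proteasome subunits, 3 were lower, namely Psma5, Psmb4 and Psmb1, by -0.33, -0.32 and -0.31. Among 11 other class I and class I-like genes tested, 2 were higher and 4 lower, with a median of -0.39. H2-Q4 rose by 2.26 ± 0.54 (adjusted p = 0.0177), while the lipid-presenting Cd1d1 fell by 1.09 ± 0.20 (adjusted p = 0.00758) and the neonatal Fc receptor chain Fcgrt fell by 0.94 ± 0.26 (adjusted p = 0.0305). Of the 4 ligands of natural killer and T cells tested, 1 passed, Cd274, which encodes the T cell inhibitor PD-L1 and rose by 1.53 ± 0.15 (adjusted p = 0.00106). Of 5 class II genes, 1 was higher. Summed leukocyte and macrophage markers ran from 12.3 to 34.4 CPM in kept and from 27.2 to 38.4 CPM in 20 Gy cultures of C56BL6. Across all C56BL6 libraries Ptprc, the marker of all leukocytes, reached at most 0.177 CPM. Of the 10 leukocyte and macrophage markers, 3 averaged at least 1 CPM. They were Csf1r (4.43 to 22.8 CPM), Lyz2 (0.797 to 27.8 CPM) and Cd68 (1.12 to 5.59 CPM). Summed fibroblast markers did not overlap between kept and irradiated cultures. They ran from 33909 to 55344 CPM in kept cultures and from 17016 to 22694 CPM after 20 Gy (17120 to 20375 CPM after 10 Gy). The part of these cells and markers in the changes was not tested. With the block 47.5% of all genes passed after 20 Gy. There 5 regulators were higher and 10 lower, 3 and 2 genes of peptide supply, and 1 and 4 constitutive subunits. Of the class I and class I-like genes 2 were higher and 6 lower, of the class II genes 3 and 1, and of the ligands 1 and 0.

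In passaged C56BL6 cultures, 9 of 10 members were lower than in kept cultures, where 25.5% of 14415 genes were lower and 49.6% passed in either direction. The median of the 10 members was -1.07, beside -0.02 for all genes tested. These 9 calls held with each replicate left out and with the block. Of the members, Nlrc5 alone did not pass (-0.20 ± 0.78, adjusted p = 0.846), with 1.18, 0.321, 0.799 and 0.272 CPM in passaged cultures, overlapping the kept ones.

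Psmb9 and Psmb8 had the largest changes of the 10 members. Psmb9 stood at 3.78, 2.14, 2.55 and 3.44 CPM in kept and at 0.531, 0.234, 0.182 and 0.306 CPM in passaged C56BL6 cultures, and fell by 3.22 ± 0.37 (adjusted p = 0.000500). It held 18, 8, 5 and 9 counts in passaged libraries and passed the expression filter through its kept libraries. Psmb8 stood at 3.25, 1.61, 2 and 3.06 CPM in passaged cultures and fell by 1.87 ± 0.34 (adjusted p = 0.00277). Both groups of values lay wholly below those of kept cultures. Psmb10 stood at 11.2, 8.09, 8.43 and 9.38 CPM and fell by 0.80 ± 0.14 (adjusted p = 0.00224).

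Tapbp stood at 52.2, 30.4, 36.6 and 41 CPM in passaged C56BL6 cultures and fell by 1.73 ± 0.19 (adjusted p = 0.000445). Zbtb22, which overlaps it, changed by -0.21 and did not pass (adjusted p = 0.0551). Tap1 stood at 13.9, 12.5, 10.4 and 11.7 CPM and fell by 1.40 ± 0.12 (adjusted p = 0.000217). For both genes each passaged library was below each kept one. Tap2 stood at 11.8 to 15.7 CPM and fell by 1.03 ± 0.14 (adjusted p = 0.000818). H2-K1 stood at 31.3, 27.7, 32.3 and 41.9 CPM and fell by 1.11 ± 0.15 (adjusted p = 0.000932). The smallest of the 9 changes were those of B2m, at 319, 349, 274 and 294 CPM (-0.65 ± 0.11, adjusted p = 0.00177), and H2-D1, at 81.9, 81.6, 60.1 and 76.4 CPM (-0.58 ± 0.13, adjusted p = 0.00586). These were also wholly below the kept cultures.

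Beside the members, 11 of 21 regulators were lower and 1 higher in passaged C56BL6 cultures, with a median of -0.53. Of all genes tested, 25.5% were lower and 49.6% passed in either direction. Usp18 fell by 2.44 ± 0.61 (adjusted p = 0.0111), Socs1 by 2.33 ± 0.29 (adjusted p = 0.000681) and Socs3 by 2.05 ± 0.49 (adjusted p = 0.00892). In the peptide supply list 5 of 14 genes were higher and 3 lower. The tapasin relative Tapbpl fell by 1.08 ± 0.09 (adjusted p = 0.000191), and the activator subunits Psme1 and Psme2 fell by 0.81 and 0.72. Constitutive proteasome subunits had 1 of 14 higher and 1 lower, with a median of 0.09. Of other class I and class I-like genes, 8 of 11 were lower, with a median of -1.03. The non-classical heavy chain H2-T23 fell by 2.02 ± 0.12 (adjusted p = 0.000120), and the iron regulator Hfe fell by 1.73 ± 0.33 (adjusted p = 0.00331). Ulbp1, a ligand of the NKG2D receptor, rose by 1.47 ± 0.18 (adjusted p = 0.000613). Summed leukocyte and macrophage markers ran from 9.65 to 26.5 CPM in passaged cultures, beside 12.3 to 34.4 CPM in kept ones. Muscle markers were higher in passaged cultures without overlap (79.3 to 151 CPM beside 24.8 to 55.3 CPM). Melanocyte markers (3.33 to 5.23 CPM beside 10.7 to 14.9 CPM) and endothelial markers (3.71 to 5.61 CPM beside 6.07 to 18.9 CPM) were lower without overlap. The part of these cell types was not tested. With the block, where 60.1% of genes passed, 2 regulators were higher and 13 lower, 3 constitutive subunits higher and 1 lower, 3 class II genes lower (2 without it) and 2 ligands higher.

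Against passaged cultures, all 10 members were higher after 20 Gy in C56BL6, where 20.4% of 15208 genes were higher and 41.6% passed. The median was 1.18, beside 0.01 for all genes. This comparison shares its 20 Gy libraries with the comparison to kept cultures. It also shares its passaged libraries with the comparison of passaged to kept cultures, in which 9 of 10 members were lower. The 3 comparisons are therefore not independent. Psmb9 passed the expression filter here through its 20 Gy libraries. Nlrc5 was higher by 3.14 ± 0.45 (adjusted p = 0.00103), Psmb9 by 2.78 ± 0.39 (adjusted p = 0.000916), Tap1 by 1.5 ± 0.14 (adjusted p = 0.000118) and H2-D1 by 1.32 ± 0.14 (adjusted p = 0.000275). Psmb8, H2-K1, B2m and Tap2 were higher by 1.22, 1.14, 1.13 and 1.07. Tapbp was higher by 0.66 ± 0.16 (adjusted p = 0.0107), so that its 20 Gy level lay between the passaged and the kept one. Psmb10 was higher by 0.45 ± 0.13 (adjusted p = 0.0261), with overlapping libraries. The calls of 3 genes were lost when single replicates were left out. Those were Tapbp without replicate 3 or 4 (adjusted p = 0.0712 and 0.0643), Psmb8 without 2, 3 or 4 (0.0642, 0.107 and 0.0600) and Psmb10 without 2, 3 or 4 (0.110, 0.165 and 0.113).

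**Figure D3:**
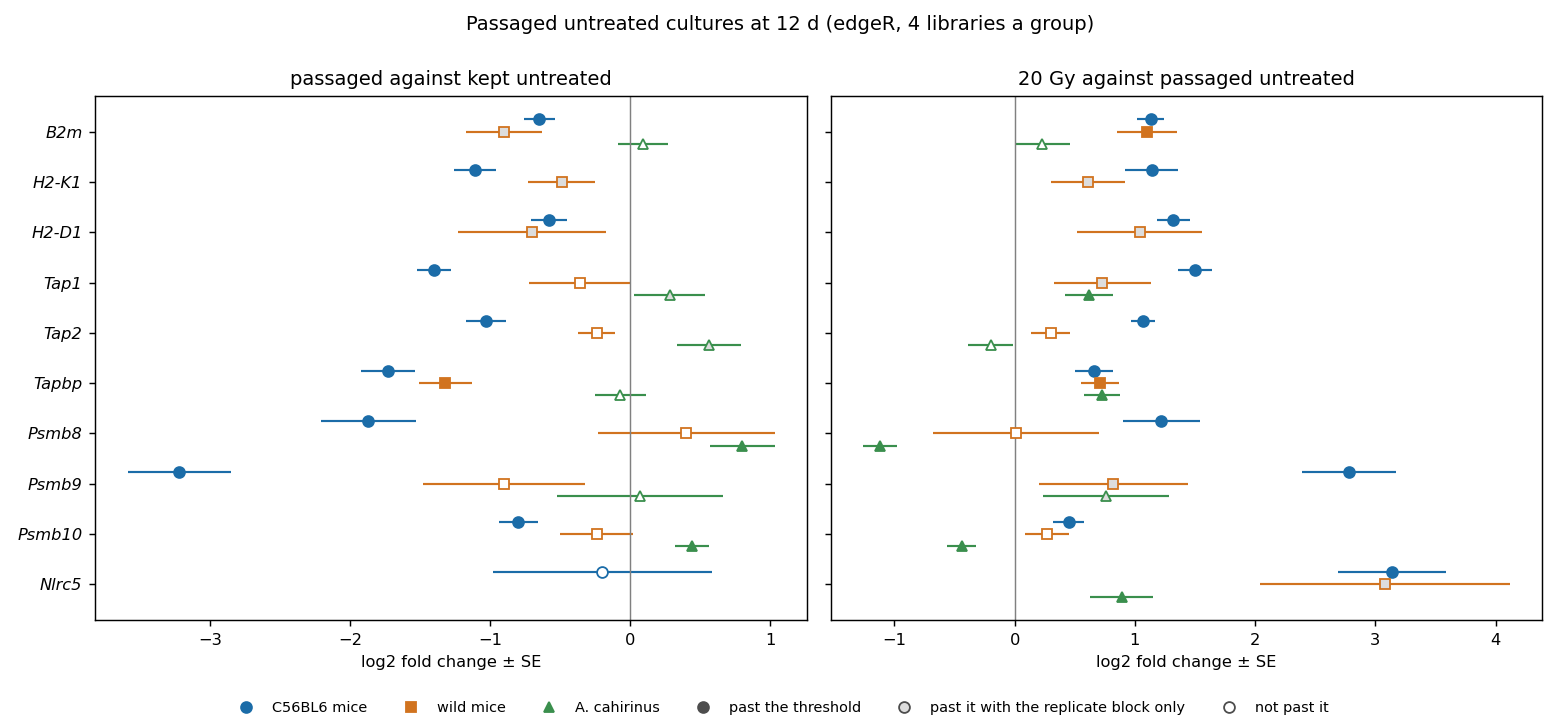
Log2 fold changes at 12 d, with SE bars, of passaged against kept cultures and of 20 Gy against passaged cultures, for each of the 10 genes and each population. Filled points passed the test, grey points passed only with the replicate block, and open points did not pass. In C56BL6 Psmb9 lies at -3.22 in the first comparison and at 2.78 in the second.

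In wild mice at 12 d no member passed after irradiation without the block, where 0.264% of genes passed after 10 Gy and 0.0694% after 20 Gy. Libraries of wild mice varied more between replicate numbers than those of C56BL6. H2-D1 in kept cultures stood at 298, 82.9, 104 and 250 CPM, high in replicates 1 and 4, which may be libraries of 1 animal, and low in the others, against an SD of 14.3 CPM in C56BL6. In untreated cells at 24 h it stood at 133, 62.2, 54.6 and 134 CPM. There 24 genes were on in one of replicates 1 and 4 and at 0 in the other. Reads of wild alleles were counted against the mouse reference, and how this affects H2-D1 was not tested.

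With the replicate number as a block, 12.7% of genes passed after 10 Gy and 15.4% after 20 Gy in wild mice, and among the members 3 and 2 passed. Nlrc5 stood at 0.322, 0, 0 and 0.349 CPM in kept cultures, at 2.77, 1.86, 0.614 and 3.02 CPM after 10 Gy and at 1.69, 1.31, 0.483 and 2.18 CPM after 20 Gy. All irradiated libraries were above all kept ones, and each replicate number was higher. The blocked change was 3.77 ± 0.59 after 10 Gy (adjusted p = 0.0106; 0.226 without the block) and 3.26 ± 0.62 after 20 Gy (adjusted p = 0.0186; 0.265 without the block). Since 2 of the kept libraries held 0 counts, the size of these changes rests on the fit. With 7, 0, 0 and 10 counts in kept libraries, Nlrc5 passed the expression filter for these tests only through its irradiated libraries. Without wild replicate 1 the blocked change after 10 Gy was 4.21 ± 0.78 (adjusted p = 0.0414), and after 20 Gy the adjusted p was 0.0753.

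Tapbp in wild mice stood at 151, 191, 122 and 120 CPM in kept cultures and at 94.3, 118, 74.3 and 91.8 CPM after 20 Gy, lower in each replicate number and without overlap. The blocked change was -0.59 ± 0.10 (adjusted p = 0.0125; 0.258 without the block, 0.0844 with the block and without replicate 1). After 10 Gy, Tap1 (0.54 ± 0.14) and Psmb8 (0.86 ± 0.22) passed with the block (adjusted p = 0.0467 for each), and neither passed without replicate 1. Tap1 stood at 29.3, 21.7, 16.5 and 26.3 CPM in kept cultures and at 48.2, 26.9, 18.3 and 48.7 CPM after 10 Gy. Between 20 Gy and 10 Gy no member passed without the block (0% of genes). With it Psmb8 was lower by -0.59 ± 0.10 (adjusted p = 0.0334, with 0.257% of genes passing; 0.268 without replicate 1).

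B2m, H2-K1, H2-D1, Tap2, Psmb9 and Psmb10 passed in neither fit after irradiation of wild mice at 12 d. H2-D1 stood at 298, 82.9, 104 and 250 CPM in kept cultures and at 450, 77, 172 and 358 CPM after 10 Gy. After 20 Gy it stood at 365, 87.5, 177 and 288 CPM. B2m stood at 546, 382, 777 and 436 CPM in kept and at 587, 464, 850 and 534 CPM in 20 Gy cultures, higher in each replicate number by a small step (0.21 ± 0.28, adjusted p = 0.805). Among the regulators tested after 10 Gy, 1 of 21 passed without the block, where 0.264% of all genes did. It was Stat2, which rose by 1.01 ± 0.10 (adjusted p = 0.0159). Without replicate 1 the Stat2 change was 0.97 ± 0.14, with adjusted p = 0.543 and 0.0207 with the block. No gene of the other lists passed after either dose without the block. With the block 12.7% of all genes passed after 10 Gy. There 5 regulators were higher and 1 lower, and 3 of 13 class I and class I-like genes were lower. In addition 2 of 4 ligands of natural killer and T cells and 1 class II gene were higher. After 20 Gy, where 15.4% of all genes passed, 4 regulators were higher and 3 lower. There 3 class I and class I-like genes were lower, and 3 ligands, 1 class II gene and 1 gene of peptide supply were higher. With the block and without replicate 1, 365 of 14494 genes passed after 10 Gy and 288 of 14428 after 20 Gy. In these fits 4 regulators and 1 ligand were higher after 10 Gy. After 20 Gy 3 regulators were higher and 1 class I-like gene lower. No other gene of these lists was past the threshold.

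Passaged wild cultures had 1 of 9 members tested lower than kept ones, where 10.7% of genes passed. This was Tapbp, at 58.9, 70.3, 52 and 53.3 CPM, which fell by 1.32 ± 0.19 (adjusted p = 0.0121) with no overlap. The call was lost without replicate 1 or 4 (adjusted p = 0.162 and 0.0858). With the block 4 of 9 members were lower, where 31.9% of genes passed. They were Tapbp (-1.31, adjusted p = 0.00159), B2m (-0.88, 0.00570), H2-D1 (-0.66, 0.00385) and H2-K1 (-0.48, 0.00838). With the block and without replicate 1, Tapbp, B2m and H2-D1 passed (adjusted p = 0.0190, 0.0379 and 0.0321) and H2-K1 did not (0.0563). In that fit 13.7% of all genes passed. H2-T23 also fell, by 2.20, and Fcgrt by 1.26, in the fit without the block. Without replicate 1 their adjusted p were 0.162 and 0.19, and 0.019 and 0.0245 with the block.

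Against passaged wild cultures, 2 of 10 members were higher after 20 Gy, where 10.5% of genes passed. B2m was higher by 1.10 ± 0.25 (adjusted p = 0.0302) and Tapbp by 0.71 ± 0.16 (adjusted p = 0.03). B2m lost its call without replicate 1, 2 or 4 (adjusted p = 0.180, 0.0866 and 0.164), and so did Tapbp (0.186, 0.0569 and 0.189). With the block 7 members were higher, where 19.7% of genes were: B2m, H2-K1, H2-D1, Tap1, Tapbp, Psmb9 and Nlrc5. Nlrc5 held 6, 0, 0 and 13 counts in passaged libraries and passed the expression filter only through its 20 Gy libraries. Without wild replicate 1 the blocked fit also called 7, with Tap2 in and Psmb9 out (adjusted p = 0.0533), where 28.2% of genes passed in either direction. Psmb8 stood at 12.6, 7.21, 1.41 and 13.9 CPM in passaged and at 10.7, 8.42, 2.64 and 13 CPM in 20 Gy cultures of wild mice, a change of 0.01 ± 0.69 (adjusted p = 0.995).

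In *A. cahirinus* at 12 d, Tap1 and Tapbp were higher after 20 Gy than in kept cultures, and no member was lower. That is 2 of 8 members tested, where 31.8% of 13462 genes passed and 13.8% were higher. The median of the 8 was 0.53, beside 0.00 for all genes. After 10 Gy no member passed without the block (2.87% of genes), and Tap1 and Tapbp passed with it (27.5% of genes).

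Tap1 stood at 20.4, 19.1, 13 and 11.1 CPM in kept *A. cahirinus* cultures and at 32.8, 34.1, 27.2 and 25.7 CPM after 20 Gy. Each irradiated library was above each kept one. Tap1 rose by 0.92 ± 0.20 (adjusted p = 0.0107), lost without replicate 3 (adjusted p = 0.0758). After 10 Gy it stood at 30.5, 36.5, 18.3 and 14.3 CPM, with a blocked change of 0.60 ± 0.11 (adjusted p = 0.00736; 0.3 without the block). Tap2 stood at 27.5, 38.9, 24.3 and 21.5 CPM in kept and at 35.1, 44.9, 35.1 and 30.3 CPM in 20 Gy cultures. It was higher in each animal, with a blocked change of 0.40 ± 0.08 (adjusted p = 0.0077; 0.163 without the block), where 49.2% of genes passed with the block.

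Tapbp stood at 88.9, 127, 83 and 85.6 CPM in kept *A. cahirinus* cultures and at 157, 171, 123 and 161 CPM after 20 Gy. Replicate 2 was the high one among the kept cultures and overlapped the lowest irradiated library, and each animal was higher after 20 Gy. Tapbp rose by 0.68 ± 0.16 (adjusted p = 0.0130), lost without replicate 1, 3 or 4 (adjusted p = 0.121, 0.0543 and 0.0869). After 10 Gy its blocked change was 0.44 ± 0.08 (adjusted p = 0.00874; 0.288 without the block). Zbtb22 changed by -0.18 after 20 Gy and did not pass (adjusted p = 0.159).

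B2m stood at 479, 581, 405 and 353 CPM in kept and at 634, 813, 426 and 414 CPM in 20 Gy cultures of *A. cahirinus*. The rise was larger in replicates 1 and 2, with a blocked change of 0.30 ± 0.10 (adjusted p = 0.0342; 0.324 without the block). Nlrc5 stood at 0.203, 0.593, 0.103 and 0.374 CPM in kept and at 0.501, 0.539, 0.67 and 0.67 CPM in 20 Gy cultures, with overlap (0.89 ± 0.46, adjusted p = 0.176). Psmb8, Psmb9 and Psmb10 did not pass in either fit, with changes of -0.30, 0.85 and 0.01. Between 20 Gy and 10 Gy no member passed in either fit, where 0.457% of genes passed without the block and 17.9% with it.

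Of the other lists in *A. cahirinus* after 20 Gy, regulators had 1 of 21 higher and 4 lower, where 31.8% of all genes passed. Socs3 fell by 1.79 and Irf2 by 0.67. In the peptide supply list 2 of 14 were lower, the chaperone Hspa5 (-0.57) and the peptide-trimming enzyme Erap1 (-0.27). Of constitutive proteasome subunits 1 of 14 was higher, Psma7 (0.25). Of class I-like genes 2 of 8 were higher, among them Hfe (0.44), and Cd274 rose by 1.01. With the block 49.2% of all genes passed. There 1 regulator was higher and 7 lower, 2 and 4 genes of peptide supply, and 2 and 0 constitutive subunits. Of the class I-like genes 3 were higher and 0 lower, and of the class II genes 0 and 1. Summed leukocyte and macrophage markers ran from 3.91 to 4.75 CPM in kept and from 5.58 to 12.9 CPM in 20 Gy cultures. Endothelial markers (0.584 to 1.93 CPM in kept, 2.81 to 4.91 CPM after 20 Gy) were also higher without overlap. So were melanocyte markers (6.97 to 8.05 CPM in kept, 9.19 to 13.9 CPM after 20 Gy). The fibroblast, keratinocyte and muscle sums overlapped. The part of these markers was not tested.

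Passaged *A. cahirinus* cultures had no member lower than kept ones. Psmb8 and Psmb10 were higher, 2 of 7 members tested, where 25.8% of 12992 genes passed. Psmb8 stood at 6.48, 10.9, 6.59 and 5.64 CPM in kept and at 15.9, 13.5, 12.5 and 10.5 CPM in passaged cultures, and rose by 0.80 ± 0.23 (adjusted p = 0.0344). Only kept replicate 2 reached into the passaged range. The call was lost without replicate 1, 3 or 4 (adjusted p = 0.208, 0.162 and 0.0801). Psmb10 stood at 10.9, 11, 11.6 and 9.41 CPM in kept and at 15, 13, 13.9 and 17.1 CPM in passaged cultures, with no overlap. It rose by 0.44 ± 0.12 (adjusted p = 0.0262), lost without replicate 1, 3 or 4 (adjusted p = 0.146, 0.0944 and 0.102). With the block Tap1 (0.29, adjusted p = 0.0160) and Tap2 (0.57, adjusted p = 0.000800) were higher too, where 49.5% of genes passed. Tapbp stood at 75.6 to 114 CPM in passaged cultures and changed by -0.07 ± 0.18 (adjusted p = 0.797). Nlrc5 was too low to be tested in this comparison. Summed fibroblast markers (26309 to 37210 CPM beside 37881 to 46629 CPM in kept cultures) were lower in passaged cultures without overlap. Keratinocyte markers (3.24 to 3.95 CPM beside 9.9 to 15.5 CPM) were lower too. Leukocyte and macrophage markers (5.14 to 5.68 CPM beside 3.91 to 4.75 CPM) were higher without overlap. The other marker sums overlapped, and the part of these markers was not tested.

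Against passaged cultures, 3 of 8 members were higher and 2 lower after 20 Gy in *A. cahirinus*, where 42.5% of 13338 genes passed. Tap1 was higher by 0.62 ± 0.20 (adjusted p = 0.0344), Tapbp by 0.73 ± 0.15 (adjusted p = 0.00563) and Nlrc5 by 0.89 ± 0.26 (adjusted p = 0.0233). Nlrc5 held 8, 8, 9 and 11 counts in passaged libraries and passed the expression filter through its 20 Gy libraries. Psmb8 was lower by -1.12 ± 0.14 (adjusted p = 0.000659) and Psmb10 by -0.44 ± 0.12 (adjusted p = 0.0158). With each replicate left out Psmb8 passed. Tapbp was lost without replicate 1 (adjusted p = 0.0514). The others were lost without replicates 1, 3 and 4, with adjusted p = 0.0540, 0.132 and 0.0661 for Tap1, 0.0918, 0.133 and 0.0852 for Nlrc5 and 0.0813, 0.0853 and 0.0902 for Psmb10. With the block Psmb9 was higher by 0.85 ± 0.27 (adjusted p = 0.0313).

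The difference between populations in the 20 Gy response was tested itself, over the symbols found once in each table. At 12 d the response of Tapbp was higher in *A. cahirinus* than in C56BL6 by 1.73 ± 0.22 (adjusted p = 0.000313), a call kept with each replicate left out, and that of Tap1 by 0.78 ± 0.25 (adjusted p = 0.0437). These were 2 of 8 members, where 18.8% of 14101 genes passed. The Tap1 difference was lost without any 1 of the 4 replicate numbers (adjusted p = 0.0765, 0.0794, 0.177 and 0.125) and had an adjusted p of 0.00175 with the block. The Nlrc5 response was lower in *A. cahirinus* by -2.07 ± 0.84, which did not pass (adjusted p = 0.100), and by -2.37 ± 0.74 with the block (adjusted p = 0.0306), where 38.1% of genes passed. The other 5 members did not pass in either fit.

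Against wild mice, the Tapbp response at 12 d was higher in *A. cahirinus* by 1.28 ± 0.27 (adjusted p = 0.0235), 1 of 8 members, where 3.23% of genes passed. It was lost without replicate 1, 3 or 4 of both populations (adjusted p = 0.3, 0.0622 and 0.180). With the block and without wild replicate 1 alone it was 1.26 (adjusted p = 0.00271). Tap1 passed with the block only (0.61 ± 0.18, adjusted p = 0.0315, with 23.5% of genes passing), and not when wild replicate 1 was also left out (0.0799). Between wild mice and C56BL6 no member differed at 12 d in either fit, where 0% of genes passed without the block and 0.101% with it. The difference was 0.44 ± 0.25 for Tapbp and 0.12 ± 1.03 for Nlrc5.

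**Figure D4:**
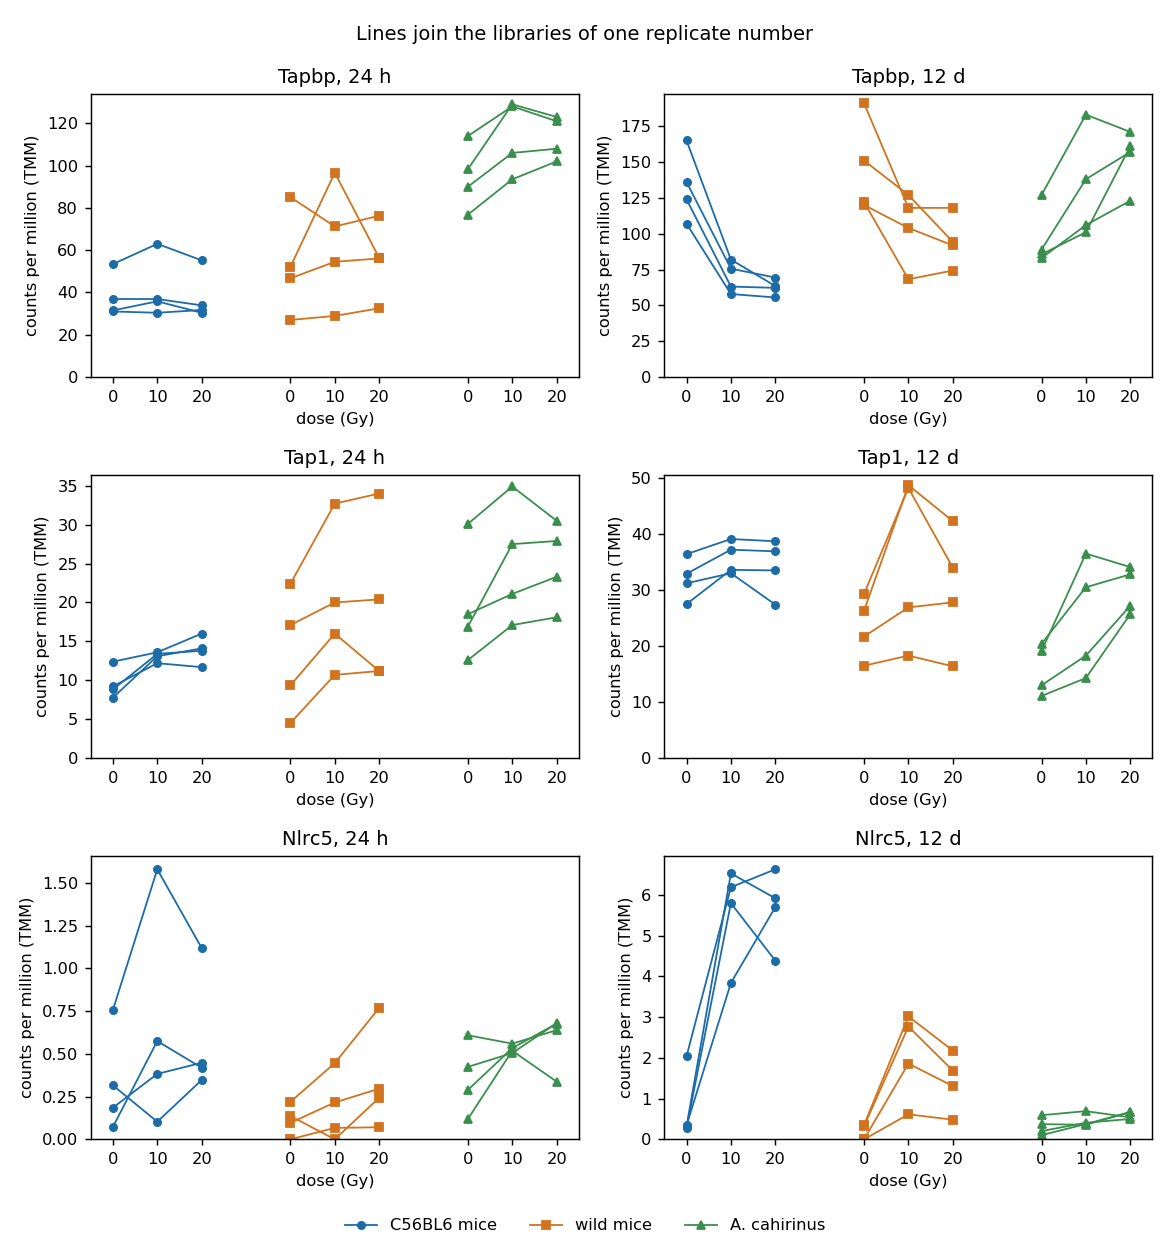
CPM of Tapbp, Tap1 and Nlrc5 by dose at 24 h and 12 d, with lines joining the libraries of one replicate number in each population. At 12 d the lines of Tapbp go down from kept cultures to 20 Gy for all 4 replicate numbers of C56BL6 and of wild mice and up for all 4 of *A. cahirinus*.

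At 24 h no member passed without the block in any population, at either dose. In C56BL6, 0.00700% of genes passed after 10 Gy and 0.0895% after 20 Gy. In wild mice 0% passed at each dose, and in *A. cahirinus* 3.73% and 3.59%. The counts below are therefore those of the blocked fit.

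Tap1 in C56BL6 at 24 h stood at 12.4, 9.22, 7.77 and 8.83 CPM in untreated cells, at 13.6, 12.2, 13.1 and 13.4 CPM after 10 Gy and at 16, 11.7, 14.1 and 13.8 CPM after 20 Gy. Each animal was higher at both doses, while untreated replicate 1 overlapped the irradiated libraries. The blocked change was 0.47 ± 0.10 after 10 Gy (adjusted p = 0.0132; 0.440 without the block) and 0.56 ± 0.09 after 20 Gy (adjusted p = 0.00111; 0.305 without the block). It was 1 of 9 members tested after 10 Gy, where 11.5% of genes passed with the block, and 1 of the 2 members that passed after 20 Gy, where 17.6% of genes did. The other after 20 Gy was H2-D1 (0.26 ± 0.05, adjusted p = 0.00212; 0.527 without the block), at 74.2, 68.6, 53.1 and 60 CPM untreated and 83.8, 79.9, 64.2 and 76.9 CPM irradiated. Tapbp at 24 h stood at 53.4, 31, 31.5 and 36.9 CPM untreated and at 55.2, 31.7, 30.4 and 33.9 CPM after 20 Gy, with no change that passed (-0.01 ± 0.24, adjusted p = 0.996). Psmb9 was too low to be tested in C56BL6 at 24 h.

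In wild mice at 24 h, Tap1 (0.60 ± 0.15, adjusted p = 0.0282; 1 without the block) and B2m (0.27 ± 0.08, adjusted p = 0.0388; 0.824 without the block) passed with the block after 20 Gy, where 12.5% of genes passed. Tap1 stood at 9.35, 17.1, 4.52 and 22.4 CPM untreated and at 11.2, 20.4, 11.2 and 34 CPM after 20 Gy, higher in each animal with overlapping groups. B2m stood at 293, 247, 264 and 235 CPM untreated and at 308, 305, 342 and 281 CPM after 20 Gy. After 10 Gy no member passed in either fit. There replicate 1 stood apart, with 663 CPM of B2m beside 275 to 332 CPM in the others and 35 CPM of Psmb10 beside 7.96 to 13.4 CPM. Nlrc5 was too low to be tested in wild mice at 24 h.

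In *A. cahirinus* at 24 h, 6 of 8 members were higher with the block after 10 Gy, where 27.6% of genes passed, and 5 after 20 Gy, where 24.1% passed. After 10 Gy these were Tap1 (0.38 ± 0.09, adjusted p = 0.00573), Tap2 (0.38 ± 0.07, adjusted p = 0.00136), Tapbp (0.27 ± 0.05, adjusted p = 0.00221), Psmb8 (0.37 ± 0.10, adjusted p = 0.0141), Psmb9 (0.56 ± 0.17, adjusted p = 0.0269) and B2m (0.16 ± 0.05, adjusted p = 0.0279). After 20 Gy they were Tap1, Tap2, Tapbp, Psmb8 and Psmb9. Tap1 stood at 30.1, 16.9, 18.5 and 12.6 CPM untreated and at 30.5, 27.9, 23.3 and 18.1 CPM after 20 Gy. Psmb9 stood at 3.65, 0.94, 1.14 and 0.982 CPM untreated and at 5.14, 1.94, 2.28 and 2.15 CPM after 20 Gy, with replicate 1 the high one throughout. Without the block the adjusted p of these genes lay between 0.315 and 0.722 after 10 Gy. At 24 h, 1 of 8 members differed between *A. cahirinus* and C56BL6 in the 20 Gy response with the block, Tapbp (0.29 ± 0.08, adjusted p = 0.0245; 0.847 without it), where 2.08% of genes passed without the block and 16.8% with it. No member differed between *A. cahirinus* and wild mice (0% of genes without the block, 7.41% with it) or between wild mice and C56BL6 (0% and 0.647%).

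Levels of different genes were compared per length, as CPM per kilobase of exon, in kept C56BL6 cultures. B2m was highest at 564 ± 51.2 CPM per kilobase (SD, n = 4), followed by H2-D1 at 43.7 ± 5.56, Tapbp at 36.7 ± 6.67 and H2-K1 at 24.5 ± 3.48. H2-D1 and Tapbp lay within their spread of each other. Psmb10 stood at 9.46 ± 0.988, Tap2 at 7.61 ± 1.05 and Tap1 at 5.85 ± 0.67. Psmb8 stood at 2.69 ± 0.995, Psmb9 at 0.814 ± 0.208 and Nlrc5 at 0.0879 ± 0.102, all in CPM per kilobase. In *A. cahirinus* kept cultures B2m was also the highest of the 8, at 522 ± 114, and Nlrc5 the lowest, at 0.0417 ± 0.0281 CPM per kilobase. Mouse and *A. cahirinus* counts were made on different annotations, so levels are not set against each other.

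Across the 28 libraries of C56BL6, the correlation of each member's log2 CPM with the mean of the other members ran from 0.71 for Nlrc5 and 0.78 for Tapbp to 0.96 for Tap2. In wild mice it ran from 0.46 for Psmb10 to 0.92 for Tap1, and in *A. cahirinus* from 0.22 for Psmb10 to 0.81 for Tap1. These describe libraries that share animals, batches and groups. Outside the set, the genes most like the members' mean were Dtx3l (r = 0.97), Lgals3bp (0.97), Ephb6 (0.96), Uap1l1 (0.96) and Sp100 (0.96) in C56BL6. In wild mice they included H2-T22 (0.94), Sp100 (0.93), Trim30a (0.92) and Lyz2 (0.91). In *A. cahirinus* they were Tnip1 (0.89), Slc2a6 (0.88), Nacc2 (0.86), Acrv1 (0.85) and Galc (0.84). Sp100 was in the first 5 of both mouse populations.

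Several members share exonic bases with other genes. Beside Tapbp, these were Tap2 (18.5%, with Gm15821 and Gm20496), Psmb8 (14.7%, with Gm20496), Psmb9 (5.8%) and Tap1 (3.9%), the last of which overlap each other on opposite strands. Nlrc5 shared 0.9%, and B2m, H2-K1, H2-D1 and Psmb10 shared 0%. The file headers record no strand option, so reads of such stretches cannot be assigned to one of the genes with certainty.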

How the data were processed

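Poly(A) RNA-seq counts of 84 libraries were used. Per the file headers, the authors made the deposited raw counts with featureCounts 2.0.3, for mouse on GRCm39 with Ensembl release 108 and for *A. cahirinus* on AcoCah2 by gene name. No strand, multi-mapping or overlap option is recorded there. The submitters' processing notes name Trim Galore and HISAT2.

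Of 56980 mouse identifiers, 56236 matched a symbol. Genes were filtered with filterByExpr and scaled by TMM (edgeR 4.0.16, R 4.3.3). The quasi-likelihood test was run on the groups compared, in 21 comparisons within and 6 between populations, with Benjamini-Hochberg adjustment over all genes tested. SE is the log2 fold change divided by the square root of F. The fits were also run on simulated counts, drawn with the same dispersion for every gene and no animal effect. For the test between populations these used size factors over both tables together. They therefore cover neither what the block gains nor the size factors used between populations.

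Same-numbered libraries share an animal code. Their deviations from group means correlated at means of 0.47 to 0.83 over the 21 comparisons, with no single value under 0.31. For other numbers the means were -0.28 to -0.12. Subtracting the mean of 4 libraries itself pushes these below 0. No pair of libraries of a group agreed within counting noise (lowest chi-square per degree of freedom 9.81).

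Members and gene lists were chosen with earlier results of these data known. All members are named. A list contributed up to 3 names per comparison, the largest changes that passed among genes averaging 1 CPM or more. Genes of like pattern are the 5 with the highest Pearson r and at least 5 CPM (prior count 2). One of these in wild mice is not reported here. Alternatives were size factors by RLE, no filter, DESeq2 1.42.0, the replicate block and each replicate number left out. Fits without wild replicate 1, and the IRF motif, were added after seeing the data.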

Additional observations from a re-analysis of the deposited data

Results flagged for a closer look

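In 13 of 195 member and group pairs tested, 1 library lay far from the other 3, by the gap to its neighbour divided by the whole range. Chance flags about 1 in 20 such groups.

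Nlrc5 gave 4 of these. In kept C56BL6 cultures at 12 d replicate 1 stood at 2.04 CPM beside 0.284 to 0.344 CPM (ratio 0.965), and after 20 Gy at 24 h the same animal stood at 1.12 CPM beside 0.347 to 0.448 CPM (0.869). In *A. cahirinus*, replicate 1 was low after 20 Gy at 24 h (0.338 CPM beside 0.639 to 0.68, ratio 0.880) and replicate 2 high after 10 Gy at 12 d (0.693 CPM beside 0.358 to 0.408, ratio 0.851).

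Psmb9 was high in *A. cahirinus* replicate 1 in all 3 groups at 24 h. It stood at 3.65 CPM untreated (others 0.94 to 1.14, ratio 0.926), 4.28 CPM after 10 Gy (others 1.65 to 1.81, ratio 0.941) and 5.14 CPM after 20 Gy (others 1.94 to 2.28, ratio 0.895). Psmb10 was high in kept C56BL6 replicate 4 at 12 d (18.6 CPM beside 15.1 to 15.6, ratio 0.861). It was low in untreated *A. cahirinus* replicate 2 at 24 h (13.5 CPM beside 16.7 to 17.1, ratio 0.909).

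B2m was high in C56BL6 replicate 2 after 10 Gy at 24 h (353 CPM beside 300 to 308, ratio 0.855) and in wild replicate 1 after 10 Gy at 24 h (663 CPM beside 275 to 332, ratio 0.854). Tapbp was high in C56BL6 replicate 1 after 20 Gy at 24 h (55.2 CPM beside 30.4 to 33.9, ratio 0.860) and in kept *A. cahirinus* replicate 2 at 12 d (127 CPM beside 83 to 88.9, ratio 0.864).

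In 3 cases the 20 Gy response at 12 d differed between populations by the test of the difference with edgeR. The *A. cahirinus* response was higher than that of C56BL6 by 1.73 for Tapbp (adjusted p = 0.000313) and by 0.78 for Tap1 (adjusted p = 0.0437). It was higher than that of wild mice by 1.28 for Tapbp (adjusted p = 0.0235).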

How the results depend on the processing

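No member change that passed the test turned its sign under an alternative run. Of the others, 31 turned in 42 values, 37 of them leaving out a replicate number, and none passed in either fit. With the block Nlrc5 in passaged C56BL6 cultures went from -0.20 to 0.01, and without wild replicate 1 as well Psmb8 in passaged wild cultures went from 0.40 to -0.07. With RLE size factors all 242 kept their call. Without a filter 1 of 242 was lost, which took the *A. cahirinus* minus C56BL6 count at 12 d from 2 to 1. With DESeq2, 4 were gained, 1 of them after 10 Gy in wild mice at 12 d (0 to 1) and 1 in passaged wild cultures (1 to 2). Another was a lower call in C56BL6 after 20 Gy at 12 d (4 to 5). The last was in wild 20 Gy against passaged cultures (2 to 3).

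The replicate block gained 41 calls and lost none. The share of all genes that passed rose with it too. At 24 h it went from 0.0895% to 17.6% in C56BL6 after 20 Gy and from 3.73% to 27.6% in *A. cahirinus* after 10 Gy. Shares for the counts below stand beside the results in the report. At 24 h the number of members called went from 0 to 1 (10 Gy) and 2 (20 Gy) in C56BL6, from 0 to 2 in wild mice (20 Gy), from 0 to 6 (10 Gy) and 5 (20 Gy) in *A. cahirinus*, and from 0 to 1 for *A. cahirinus* minus C56BL6. At 12 d it went in wild mice from 0 to 3 (10 Gy), 0 to 2 (20 Gy), 0 to 1 (20 Gy against 10 Gy), 1 to 4 (passaged) and 2 to 7 (20 Gy against passaged). In *A. cahirinus* it went from 0 to 2 (10 Gy), 2 to 4 (20 Gy) and 2 to 4 (passaged), and for *A. cahirinus* minus wild from 1 to 2. The calls that the block gave beside these are in the report, and it changed no other call of a member. With the block and without wild replicate 1, wild counts were 1 (10 Gy), 3 (passaged) and 7 (20 Gy against passaged). Of all genes, 2.52%, 13.7% and 28.2% passed in these fits. Without wild replicate 1 and no block, *A. cahirinus* minus wild at 12 d went from 1 to 0.

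Leaving out 1 replicate number, or wild replicate 1 alone, gave 60 lost and 6 gained calls. Counts ran from 1 to 4 in C56BL6 at 12 d after either dose, 9 to 9 in passaged and 7 to 10 in 20 Gy against passaged cultures. They ran from 0 to 2 for both passage comparisons of wild mice. In *A. cahirinus* they ran from 0 to 4 (20 Gy), 0 to 3 (passaged) and 1 to 5 (20 Gy against passaged), from 1 to 2 for *A. cahirinus* minus C56BL6 and from 0 to 1 for *A. cahirinus* minus wild at 12 d. The cause was not tested beyond the fewer libraries fitted. Nlrc5 and Psmb9, near the 3-count limit in many libraries, are the members that depth limits most.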
